A study of Mus musculus with 4 samples.

Results

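The comparison set late erythroblasts (R4) against early erythroblasts (R2) from mouse fetal liver, with the intermediate population R3 as the step between them. Members were defined by their sort label: 2 of the series' 4 libraries, 1 for R4 and 1 for R2. They were chosen with earlier results of these data known, as were the gene lists. R3 served to place each change along the course, and R5, which contains reticulocytes, was left out of every ratio. The cells came from E14.5 livers and were sorted, without culture, by staining for TER119, a red cell surface antigen, and CD71, the transferrin receptor. Per the series design, R2 holds proerythroblasts and early basophilic erythroblasts, R3 holds basophilic erythroblasts from early to late, and R4 holds mostly polychromatophilic and orthochromatophilic erythroblasts. No strain, genotype or treatment is stated, and the labels do not say how many embryos were pooled. Each population gave 1 polyadenylated RNA library, so no difference below has a replicate check. Every count describes these libraries, and no p-value can be given. A population is a sorted mixture of neighbouring stages, and in bulk RNA fewer cells of a type and less RNA per cell cannot be told apart.

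Between these stages an erythroblast stops dividing, fills with hemoglobin, condenses its nucleus and clears much of its earlier cytoplasm. Heme is made from glycine and succinyl-CoA through a chain of enzymes that starts with an aminolevulinate synthase, and its iron enters through the transferrin receptor. The membrane gains band 3 and a spectrin network, and the nucleus is later expelled in a step that needs chromatin condensation and cytoskeletal forces.

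Values are RPKM, read counts scaled to gene length and library size, as deposited. The steps between low values imply about 23000000 reads for R2, 25600000 for R3 and 27400000 for R4, so 10 RPKM over 1 kb rests on 229.6 reads in R2 and 274 in R4. The share of globin genes in all RPKM was 5.52% for R2, 59.4% for R3 and 80.4% for R4, which lowers the RPKM of every other gene in the later libraries. Each ratio is log2((RPKM + 1) ratio) and is given on up to 3 scales. The first is as deposited. The second removes the 9 globin genes and brings the rest to a common sum. The third, median scaling, divides each library by its median ratio to the geometric mean of the 4 libraries over the 2745 genes at 5 RPKM or more in all of them. Before 1 is added to RPKM, removing globins adds 1.45 to every log2 ratio of R4 against R2 and median scaling adds 1.97. A gene was called higher or lower at a 2-fold ratio, and "under all 3 scales" means that the call held on each scale that gives the gene a value. A call therefore speaks of a gene relative to the others in its library and not of molecules per cell.

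The gene of one sort marker and other erythroid genes were detected in all 3 populations. Tfrc, which encodes CD71, stood at 52.1 RPKM in R2, 133 in R3 and 74.4 in R4. Epor, the erythropoietin receptor gene, was at 144, 200 and 97.0, and Klf1, a master erythroid transcription factor, at 254, 418 and 257. Markers of other cells were present in R2. The 14 granulocyte markers summed to 6336 RPKM in R2, 445 in R3 and 244 in R4, and none of them was listed at 0. The 16 macrophage markers summed to 318, 88.7 and 43.8 RPKM, with Cd163 at 0 in R2. The 13 lymphoid markers found in the files summed to 67.4, 4.46 and 3.36, and the 10 mast cell and basophil markers to 141, 10.7 and 6.07, with Cd3e and Tpsab1 at 0 in all 3 libraries. The 14 megakaryocyte markers summed to 65.6, 54.6 and 28.4, the 10 endothelial ones to 30.8, 12.8 and 5.37, and the 10 mesenchymal ones to 2.82, 2.56 and 1.18. The 16 hepatocyte markers summed to 379, 610 and 211 RPKM, highest in R3. R2 therefore carried more non-erythroid signal than R4 for all of these lists as deposited. With median scaling the median log2 ratio of R4 against R2 stayed below 0 for granulocyte (-2.47), lymphoid (-1.09) and mast cell and basophil markers (-1.74). It was above 0 for hepatocyte (1.39), endothelial (0.30), megakaryocyte (0.14) and macrophage markers (0.07). The part of the non-erythroid signal in the lower values of R4 was not tested.

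Promoter sequence is shown first for genes at the 2 ends of the comparison. Windows of 250 bases upstream of the annotated start (RefSeq, build GRCm38.p6, 5′ to 3′ on the gene's own strand) were searched on both strands. The motifs were the GATA factor motif, AGATAA or TGATAA, and the E-box CACGTG, bound by MYC and MAX. Capitals mark the matches. Alas2, Tmcc2 and Bcl2l1 are among the highest genes in R4 and Epb4.2 is a membrane skeleton gene that rose, and each has a window with a GATA match. Nop2, a ribosome biogenesis gene that fell, is the only one of that list's 27 genes with a window to hold the E-box. Tmcc2 and Bcl2l1 have 3 annotated windows each, of which the one with a match is shown.
Alas2: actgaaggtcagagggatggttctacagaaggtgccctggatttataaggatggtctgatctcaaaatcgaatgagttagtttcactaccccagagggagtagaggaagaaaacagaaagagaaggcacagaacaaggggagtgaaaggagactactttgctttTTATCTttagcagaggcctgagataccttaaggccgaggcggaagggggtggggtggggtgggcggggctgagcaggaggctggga
Epb4.2: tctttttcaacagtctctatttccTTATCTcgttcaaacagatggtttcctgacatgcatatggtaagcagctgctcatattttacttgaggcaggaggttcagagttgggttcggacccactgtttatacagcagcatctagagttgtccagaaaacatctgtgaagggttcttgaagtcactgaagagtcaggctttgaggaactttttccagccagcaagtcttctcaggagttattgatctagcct
Tmcc2: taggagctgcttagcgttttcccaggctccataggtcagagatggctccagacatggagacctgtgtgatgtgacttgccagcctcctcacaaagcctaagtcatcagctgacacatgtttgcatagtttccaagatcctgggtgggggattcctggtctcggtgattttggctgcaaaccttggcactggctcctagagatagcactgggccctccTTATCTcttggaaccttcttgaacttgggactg
Bcl2l1: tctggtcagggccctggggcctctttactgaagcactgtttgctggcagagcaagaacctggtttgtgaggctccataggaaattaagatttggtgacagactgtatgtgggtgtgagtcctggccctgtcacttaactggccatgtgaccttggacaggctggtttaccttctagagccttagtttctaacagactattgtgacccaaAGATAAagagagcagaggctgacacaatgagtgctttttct
Nop2: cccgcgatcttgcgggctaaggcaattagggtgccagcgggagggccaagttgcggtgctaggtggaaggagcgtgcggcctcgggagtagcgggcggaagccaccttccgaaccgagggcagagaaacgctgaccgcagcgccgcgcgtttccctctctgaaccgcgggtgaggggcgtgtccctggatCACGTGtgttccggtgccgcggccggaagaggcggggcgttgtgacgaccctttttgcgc
The Alas2 window lies at chrX:150547167-150547416 on the plus strand, that of Epb4.2 (now Epb42) at chr2:121036878-121037127 on the minus strand, that of Tmcc2 at chr1:132367949-132368198 on the minus strand, that of Bcl2l1 at chr2:152828490-152828739 on the minus strand and that of Nop2 at chr6:125131633-125131882 on the plus strand. Of the 10 non-globin genes among the 15 highest in R4, 8 had a window and 3 of these had a GATA match. Phospho1, one of the 8, holds the E-box. Among genes higher in R4 under all 3 scales, 15.3% of 333 windows held the GATA motif, against 8.88% of 2456 windows of genes lower under all 3 scales and 9.18% of 10156 windows of all genes past the filter. Over all 32851 mouse windows the share was 16.6%, and those windows have a lower GC content (median 52.4%) than the windows of genes past the filter (60%). The E-box was in 7.51% of windows of the higher genes, 10.3% of those of the lower genes and 8.70% of those of all genes past the filter. CCNCNCCC, a motif of Krüppel-like factors, was in 69.1%, 65.1% and 63.8%, and an E2F motif in 0.901%, 1.59% and 1.44%. A match describes letters in this window and shows no binding.

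Most genes were lower in R4 than in R2. Of 9942 genes at 1 RPKM or more in at least 1 library, 320 (3.22%) were higher and 7930 (79.8%) lower as deposited, with a median log2 ratio of -1.90. With globins removed 806 of 9933 (8.11%) were higher and 4201 (42.3%) lower, with a median of -0.84. With median scaling 1159 (11.7%) were higher and 2410 (24.2%) lower, with a median of -0.50. Both rescalings raise R4 values relative to R2, median scaling the more, so neither lowers the log2 ratio of any gene. The genes higher under all 3 scales are therefore the 320 (3.22%) of the deposited scale. Of these, 9 are globins, which have values on 2 scales only, and 311 are not. Those lower under all 3 are the 2410 (24.2%) of median scaling. Lower calls were 96.1% of calls as deposited, 83.9% with globins removed and 67.5% with median scaling.

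**Figure D1:**
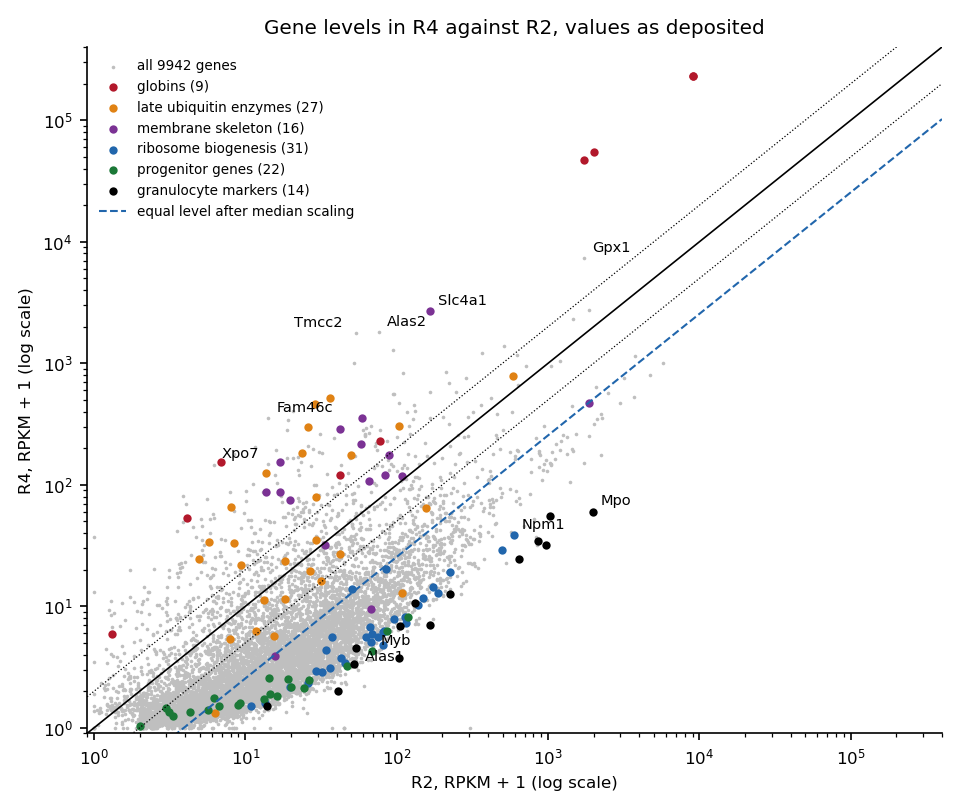
RPKM + 1 in R2 (horizontal, log scale) and R4 (vertical, log scale) for 9942 genes, with 6 gene lists in colour. The solid line marks equal deposited levels, the dotted lines a 2-fold difference, and the dashed line equal levels after median scaling. Globins, late ubiquitin enzymes and membrane skeleton genes lie mostly above the dashed line, and ribosome biogenesis genes and granulocyte markers below it.

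The R4 library was also narrower. Outside the globins, 50% of a library's RPKM was held by 460 genes for R2, 257 for R3 and 144 for R4. The top 10 non-globin genes held 8.82% in R2, 11.9% in R3 and 17.2% in R4. Genes at 1 RPKM or more as deposited numbered 9761 in R2, 8111 in R3 and 6531 in R4. The rising globin share also lowers this count, and its part in the fall was not tested. The leading genes changed place. Rplp1, a ribosomal protein gene and the top non-globin gene of R2, went from 5701 RPKM in R2 through 2652 in R3 to 1001 in R4. Eef1a1, the translation elongation factor, went from 3691 through 1514 to 525. At the head of R4 was Gpx1, the peroxide-reducing glutathione peroxidase, which went from 1720 through 5061 to 7370 and made up 5.34% of the non-globin RPKM. The ferritin genes Fth1 and Ftl1 and band 3 (Slc4a1) came next. Rplp1 was chosen after its values were seen, as the top of this ranking. Of the 100 top non-globin genes of R2 and of R4, 38 were shared.

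**Figure D2:**
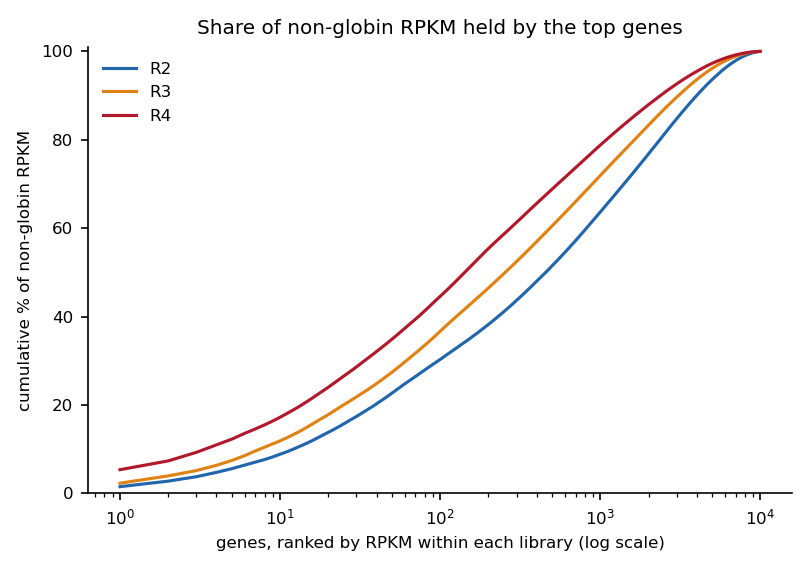
Cumulative percentage of non-globin RPKM (vertical) held by genes ranked within each library (horizontal, log scale), for R2, R3 and R4. The R4 curve lies above R3 and R3 above R2 for the top genes: 144, 257 and 460 genes reach 50%.

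The 15 highest ratios among genes at 10 RPKM or more in R2 or R4 were led by Tmcc2, a transmembrane coiled-coil protein gene. It stood at 52.8 RPKM in R2, 503 in R3 and 1776 in R4, a log2 ratio of 5.05 as deposited and 6.98 with median scaling. Globin genes made up 5 of the 15, with Hbb-b1 at 4.77 and Hba-a1 at 4.67. Hba-a1 and Hba-a2 were listed with identical values. Fam46c, a non-canonical poly(A) polymerase gene, went from 13.1 through 144 to 352 RPKM (4.65 and 6.5). Xpo7, a nuclear transport receptor, went from 5.17 through 30.1 to 146 (4.57 and 6.29). Alas2, the erythroid aminolevulinate synthase, went from 75.3 through 1129 to 1797 (4.56 and 6.51). Fam46c and Xpo7 were 2-fold or more higher at each step, and Alas2 at the first step only as deposited (3.89, then 0.67). Slc2a1, the glucose transporter, went from 51.1 through 419 to 999 RPKM. Bcl2l1, the survival factor BCL-XL, was at 18.2 in R2, 119 in R3 and 338 in R4. These non-globin genes were thus low in R2, intermediate in R3 and highest in R4. Ypel4 (19.8, 199 and 407 RPKM) and Phospho1, a phosphatase gene (10.6, 86.1 and 202), followed the same order. The loci B230312A22Rik and E130309D14Rik stood in the same range, at 178 and 80.2 RPKM in R4 against 7.37 and 2.88 in R2.

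The 15 lowest ratios were mostly not erythroid genes. Of the 15, 7 belong to the granulocyte marker list. Mpo, the neutrophil myeloperoxidase, went from 1966 RPKM in R2 through 95.2 in R3 to 59.1 in R4, a log2 ratio of -5.03 as deposited and -3.07 with median scaling. Prtn3, a neutrophil granule protease, went from 968 through 57.9 to 31.1. All 14 granulocyte markers fell, with a median of -4.28 as deposited, -2.98 with globins removed and -2.47 with median scaling, the lowest median of any list. Hdc, the histamine-forming enzyme of mast cells and basophils, went from 45.4 through 2.25 to 1.31 RPKM. Actg1 and Snora65 rest on few reads, about 5 and 1 in R4. In the plot of all genes the granulocyte markers form the lower right edge.

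Globin genes rose, and the heme synthesis and membrane skeleton lists had medians above that of all genes on every scale. All 9 globin genes were higher under every scale on which they were measured, against 3.22% of all genes as deposited. The embryonic genes Hbb-y and Hba-x rose less than the adult ones, from 76.7 to 230 RPKM (1.57) and from 40.9 to 120 (1.53). Hbb-bh1, also embryonic, rose about as much as the adult genes (5.88, 128 and 153 RPKM in R2, R3 and R4, a log2 ratio of 4.49). Of 14 heme synthesis genes, 6 rose and 3 fell as deposited (median 0.67), and 11 rose and 1 fell with median scaling (median 2.60). Those higher on all 3 scales included Alas2, Urod, Ppox, Fech and Abcb10. Fech, the enzyme that inserts iron into the ring, was at 94.7 RPKM in R2, 451 in R3 and 554 in R4. As deposited, most of its R4 level was reached by R3, but with median scaling R4 exceeded R3 by a log2 ratio of 1.38. Urod (287, 822 and 756), Ppox (85.6, 272 and 226) and the mitochondrial transporter gene Abcb10 (46.3, 205 and 123) were highest in R3 as deposited. Alas1, the housekeeping form of the first enzyme, was the only member that fell on all 3 scales, from 53.0 through 4.14 to 2.17. Alad, Uros and Cpox were also highest in R3 as deposited. With median scaling Urod, Ppox, Abcb10, Alad, Uros and Cpox were all higher in R4 than in R3. Their log2 ratios ran from 0.17 (Uros) to 0.96 (Urod), within 2-fold. Tmem14c, which moves a heme precursor within mitochondria, went from 364 through 530 to 133 and was lowest in R4 as deposited.

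Of 24 iron genes, 2 rose and 14 fell as deposited (median -1.68), and 10 rose and 2 fell with median scaling (median 0.21). Among all genes 3.22% rose and 79.8% fell as deposited (median -1.90). With median scaling 11.7% of all genes rose and 24.2% fell (median -0.50). The 2 that rose on all 3 scales were Slc25a37, mitoferrin 1, which carries iron into the mitochondrion (93.0, 1035 and 1279 RPKM in R2, R3 and R4), and Ncoa4, the receptor that sends ferritin to lysosomes (13.3, 35.0 and 37.8). Aco1, iron regulatory protein 1, went from 12.8 through 2.84 to 1.31 RPKM, and Mfsd7b (Flvcr1), a heme exporter, from 4.45 through 0.91 to 0.21. Both fell on all 3 scales. Ireb2, iron regulatory protein 2, was at 6.66, 3.46 and 0.98, and did not keep its call with median scaling (-0.56).

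Among 16 membrane skeleton genes, 8 rose and 3 fell as deposited (median 1.44), and 13 rose and none fell with median scaling (median 3.37). Of all genes, 3.22% rose and 79.8% fell as deposited, and 11.7% rose and 24.2% fell with median scaling. Slc4a1, band 3, the anion exchanger and main membrane anchor, went from 164 through 2342 to 2667 RPKM (4.02 and 5.98). Epb4.2, protein 4.2, a partner of band 3, went from 15.9 through 141 to 152. Spna1, alpha spectrin, was at 15.8 in R2, 90.7 in R3 and 86.1 in R4. Low R2 values and similar R3 and R4 values, as deposited, were common to these 3 genes. Tmod1, a tropomodulin that caps actin filaments, had the same shape (12.8, 89.3 and 86.5). The general cytoskeleton genes in the list behaved differently: Tpm3 went from 66.4 to 8.49 RPKM and Actb from 1852 to 470. Of 26 surface protein and channel genes, 10 rose and 6 fell as deposited and 19 rose and 2 fell with median scaling. Rhd (130, 524 and 456 RPKM in R2, R3 and R4) and Kel (61.8, 270 and 291), both blood group genes, were among those higher on all 3 scales, and Cd44, an adhesion receptor, went from 19.6 to 1.22.

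Of 26 erythroid transcription factor genes, 6 rose and 10 fell as deposited (median -0.46), and 16 rose and 4 fell with median scaling (median 1.5). By comparison, 3.22% of all genes rose and 79.8% fell as deposited, and 11.7% rose and 24.2% fell with median scaling. Nfe2, a regulator of the globin loci, went from 60.4 through 204 to 258 RPKM. E2f2, a cell cycle factor, was at 31.1 in R2, 191 in R3 and 181 in R4. Foxo3, a regulator of autophagy and antioxidant genes, was at 28.1, 81.7 and 98.7. Each rose on all 3 scales, as did Sox6, a repressor of embryonic globins (2.99, 21.4 and 22.2). Gata1, by contrast, was at 120, 161 and 90.7 RPKM, within 2-fold as deposited (-0.40) and higher only after rescaling (1.55 with median scaling). Bcl11a, Stat5a, Stat5b and Rxra fell on all 3 scales, Stat5a from 33.0 through 2.95 to 1.62. Of 18 erythropoietin signalling genes, 3 rose and 11 fell as deposited, and 6 rose and 6 fell with median scaling. Socs3, a feedback inhibitor, went from 1.61 through 11.5 to 9.27 RPKM.

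Progenitor genes moved the other way. Of 22, none rose, 21 fell as deposited (median -2.72) and 13 fell with median scaling (median -1.27). Lower calls covered 79.8% of all genes as deposited and 24.2% with median scaling. Myb, a progenitor transcription factor, went from 68.1 RPKM in R2 through 5.52 in R3 to 3.29 in R4. Kit, the stem cell factor receptor, was at 46.1, 4.2 and 2.2. Myc, which drives growth and ribosome production, was at 118, 15.8 and 7.21. R2 was high and both later libraries low, so most of each difference lay at the first step. Gata2, which precedes Gata1 in development, went from 19.0 through 1.61 to 1.17. Sfpi1, encoding the myeloid factor PU.1, went from 84.7 through 8.92 to 5.21. Kit and Sfpi1 are also expressed by mast or myeloid cells, and the granulocyte sum given above fell over the same step, from 6336 to 445 RPKM. The part of those cells in these values was not tested.

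Lists of the cell's general machinery were mostly lower as deposited, as were 79.8% of all genes. With median scaling they differed in the share of genes still called lower, while the order of their medians was the same on both scales. All 31 ribosome biogenesis genes fell as deposited (median -3.54) and 28 of them with median scaling (median -1.77), against 24.2% of all genes. Npm1, nucleophosmin, went from 592 through 75.7 to 37.7 RPKM. Fbl, the rRNA methyltransferase fibrillarin, went from 496 through 92.5 to 28.2. Rrp9, a part of the small-subunit processing complex, went from 80.5 through 8.61 to 3.82. R2 was the highest library for all 3 genes and R4 the lowest as deposited. Ubtf, a factor of the rDNA promoter, and Rcl1 were within 2-fold with median scaling (-0.13 and 0.03). All 30 splicing genes fell as deposited, and 10 with median scaling (median -0.92). Translation factors fell in 24 of 28 cases as deposited and in 10 with median scaling, while 3 rose there (median -0.75). Pabpc1, which binds poly(A) tails, stood out at 709, 551 and 948 RPKM. All 37 proteasome genes fell as deposited, and 7 with median scaling (median -0.22). Oxidative phosphorylation genes fell in 47 of 49 cases as deposited and in 3 with median scaling (median -0.09). Proteasome and oxidative phosphorylation genes thus stood above the all-gene median with median scaling (-0.50) and ribosome biogenesis genes below it. As deposited, proteasome and oxidative phosphorylation genes (-2.11 and -2.04) were instead below the all-gene median of -1.90. The all-gene median moved less between the 2 scales than the medians of these lists did.

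**Figure D3:**
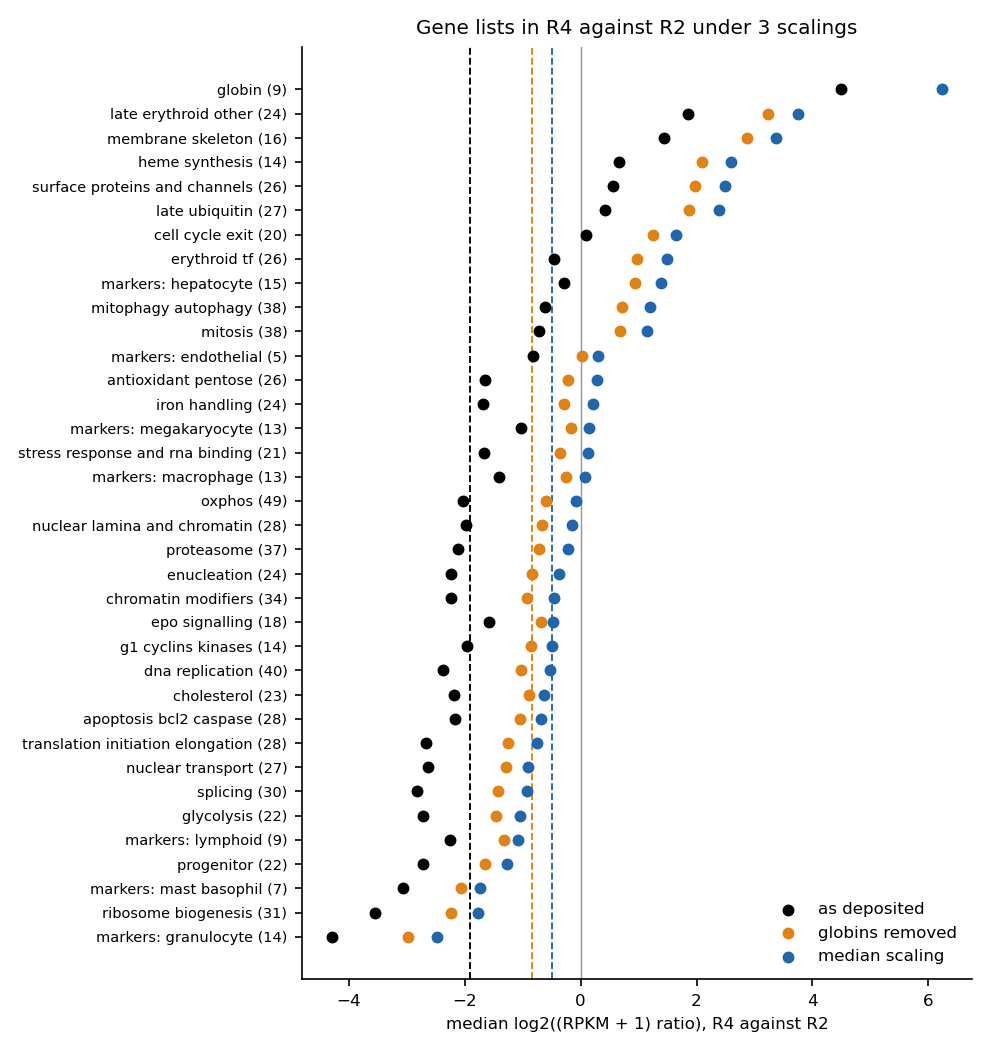
Median log2((RPKM + 1) ratio) of R4 against R2 (horizontal) for each gene list (vertical, with the number of measured genes), on 3 scales. Dashed lines give the median of all genes on each scale (-1.90, -0.84 and -0.50). Late erythroid, membrane and heme lists lie to the right on all 3 scales, and ribosome biogenesis genes and granulocyte markers at the left end.

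Glycolysis and its branch points separated sharply. Of 22 glycolysis genes, 2 rose and 19 fell as deposited, and 3 rose and 12 fell with median scaling. As deposited 3.22% of all genes rose and 79.8% fell, and with median scaling 11.7% rose and 24.2% fell. The lactate-forming enzyme gene Ldha went from 801 RPKM in R2 through 117 in R3 to 51.4 in R4. Aldoa, the aldolase, went from 569 through 94.5 to 39.5. Pkm2, a pyruvate kinase, went from 329 through 38.4 to 20.6. All were high in R2 only, as was Gpi1, the phosphoglucose isomerase (374, 51.5 and 23.7). Bpgm makes the bisphosphoglycerate that lowers the oxygen affinity of hemoglobin, and it rose from 15 through 62.4 to 194. Slc2a1 rose as given above. Gapdh, counted among the 19, rests on about 1 read in R4 and is not read further. In the antioxidant and pentose phosphate list, 3 of 26 rose and 14 fell as deposited, and 12 rose and 5 fell with median scaling. The 3 were Gpx1, Prdx2 (510, 1455 and 1379 RPKM in R2, R3 and R4) and Cat, catalase (52.0, 93.0 and 173). Pgd, of the pentose phosphate pathway, went from 194 through 27.6 to 13.4. Glycolytic and pentose phosphate enzymes are also abundant in granulocytes, whose markers fell over the same step. The part of granulocytes in these values was not tested.

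DNA replication and mitosis genes parted. Of 40 replication genes, 39 fell as deposited (median -2.37), against 79.8% of all genes. With median scaling 1 rose and 4 fell (median -0.53, near the -0.50 of all genes). Pcna, the polymerase clamp, was at 600, 651 and 162 RPKM in R2, R3 and R4, and Mcm2 of the replicative helicase at 221, 185 and 49.2. Of 38 mitosis genes, 2 rose and 15 fell as deposited (median -0.72), and 22 rose and none fell with median scaling (median 1.15, against 11.7% of all genes higher). Ube2c, the ubiquitin-conjugating enzyme of the anaphase-promoting complex, went from 131 through 411 to 407 RPKM. Nusap1, a spindle protein, went from 11.7 through 32.3 to 28.6. Both were low in R2 and similar in R3 and R4 as deposited, and both rose on all 3 scales. Mki67 went from 69.8 through 196 to 136, just under 2-fold as deposited (0.95).

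Of 20 cell cycle exit genes, 7 rose and 7 fell as deposited (median 0.09), and 11 rose and none fell with median scaling (median 1.65). Higher calls covered 3.22% of all genes as deposited and 11.7% with median scaling, and lower calls 79.8% and 24.2%. Cdkn2d, an inhibitor of cyclin D kinases, went from 9.07 through 67.2 to 72.9 RPKM. Cdkn1b, the inhibitor p27, went from 8.23 through 13.5 to 20.9. Gadd45a, a growth arrest gene, went from 29.6 through 99.1 to 187. All were highest in R4 and rose on all 3 scales, as did Mxd1, a MAX partner opposed to MYC (7.10, 39.2 and 62.6). Cdkn1a (p21) was at 4.76, 1.74 and 0.79, so the inhibitors did not move as one. Of 14 G1 cyclins and kinases, 1 rose and 11 fell as deposited, and 3 rose and 4 fell with median scaling (median -0.50, as for all genes). The one that rose as deposited was Cdc25b, a CDK-activating phosphatase (30.3, 283 and 262 RPKM in R2, R3 and R4), whereas Cdk4 went from 252 through 56.6 to 19.7 and Cdk6 from 23.3 through 2.31 to 1.11.

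The late ubiquitin and autophagy lists had medians above that of all genes, whereas the proteasome list did not as deposited (-2.11). Of 27 late ubiquitin genes, 13 rose and 4 fell as deposited (median 0.43, against -1.90 for all genes), and 21 rose and 2 fell with median scaling (median 2.39). Higher calls covered 3.22% of all genes as deposited and 11.7% with median scaling, and lower calls 79.8% and 24.2%. Trim10, a RING finger protein, went from 28.0 RPKM in R2 through 297 in R3 to 465 in R4. Ube2l6, a conjugating enzyme, went from 35.1 through 347 to 514. Ube2o, which targets ribosomal proteins for degradation, went from 24.7 through 124 to 297. Each was higher in R3 than in R2 and higher again in R4, and each rose on all 3 scales. Trim58, a ligase that acts on dynein, followed with 7.01, 23.5 and 64.6. Mkrn1 and Ube2h also rose on all 3 scales, from 22.6 to 180 and from 12.6 to 125. Several ligase genes in this list were picked by earlier work on late erythroblasts, so its direction is not independent evidence. Of 38 autophagy genes, 7 rose and 17 fell as deposited (median -0.62), and 20 rose and 3 fell with median scaling (median 1.19). The 7 were Bnip3l, a mitophagy receptor (17.4, 30.4 and 44.4 RPKM in R2, R3 and R4), the kinase gene Ulk1 (16.8, 31.9 and 53.2), Atg4a, Atg4d, Atg9a, Gabarapl2 and Pink1. Tcfeb, the lysosome regulator TFEB, went from 8.89 through 1.38 to 0.42, and Atg3 from 13.1 through 2.51 to 0.99.

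Enucleation genes as a list stayed near the level of all genes. Of 24, 2 rose and 19 fell as deposited (median -2.23), close to the 79.8% of all genes that were lower. With median scaling 5 rose and 6 fell (median -0.38), against 11.7% of all genes higher and 24.2% lower. The 2 that rose as deposited were Xpo7 and Trim58. Rac2, a cytoskeletal GTPase, went from 111 RPKM in R2 through 24.4 in R3 to 8.86 in R4. Hdac2, a histone deacetylase, went from 36.3 through 10.5 to 3.47. Both were highest in R2 and fell on all 3 scales, as did Vim, vimentin (152, 15.5 and 10.3). Rac2 and Vim are expressed by granulocytes as well, and the part of those cells in these values was not tested. Of 27 nuclear transport genes, 25 fell as deposited and the only one that rose was Xpo7. With median scaling 2 rose, Xpo7 and Kpna1, which was at 10.6, 10.3 and 7.54 RPKM and is within 2-fold as deposited (-0.44). Of 34 chromatin modifier genes, 29 fell and 1 rose as deposited, Ezh1 (4.61, 5.51 and 10.5 RPKM), and 10 fell and 3 rose with median scaling. Of 28 nuclear lamina and chromatin genes, 19 fell and 1 rose as deposited, H3f3a, which encodes histone H3.3 (245, 639 and 581). With median scaling 4 fell and 6 rose. The medians of both lists with median scaling (-0.46 and -0.15) were near or above the -0.50 of all genes.

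Of 28 apoptosis and chaperone genes, 1 rose and 23 fell as deposited, and 3 rose and 10 fell with median scaling (median -0.69). As deposited this is near the 79.8% of all genes that were lower. The one that rose as deposited was Bcl2l1. Hspa8, a constitutive chaperone, went from 2245 RPKM in R2 through 495 in R3 to 174 in R4. In the stress response and RNA binding list, 4 of 21 rose and 15 fell as deposited, and 5 rose and 5 fell with median scaling (median 0.13). The first 4 were Eif2ak1, Myd116, Rbm38 and Cpeb4. Eif2ak1, the heme-sensing kinase HRI, was at 48.1 RPKM in R2, 139 in R3 and 166 in R4. Myd116, the phosphatase subunit that reverses its signal, was at 42.4, 192 and 290. R4 was the highest library for both, and likewise for the RNA-binding proteins Rbm38 (212, 683 and 847) and Cpeb4 (7.44, 46.1 and 59.6). Zfp36l2, an mRNA decay factor, went from 130 through 26.1 to 9.96. Of 23 cholesterol genes, 21 fell as deposited, and 5 fell and 1 rose with median scaling, near the 24.2% of all genes that were lower. In the list of other late erythroid genes, 19 of 24 rose and none fell as deposited, against 3.22% of all genes higher. This list too was written with earlier results of these data known, so its direction is not independent evidence. Car2, the abundant carbonic anhydrase, went from 365 through 1387 to 1202 RPKM.

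Pairs of related genes within the same library need no scaling between libraries. Of 32 pairs of a form known from late erythroblasts and a general or earlier form, 28 had both members at 1 RPKM or more in R2 and R4. The ratio turned at least 2-fold toward the late form in 20, toward the other form in 2, and stayed within 2-fold in 6. In 9 pairs the more abundant form changed. Pairs were chosen with knowledge of erythroid biology and of these data, so the direction of the count is no independent evidence.

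Alas2 to Alas1 moved farthest, from a ratio of 1.42 in R2 through 273 in R3 to 828 in R4, a 583-fold change. Xpo7 to Xpo1, nuclear transport receptors of one family, went from 0.245 through 2.55 to 42.0. For the glucose transporters Slc2a1 to Slc2a3 the ratio was 3.43, 76.3 and 444. In all 3 pairs R3 lay between R2 and R4. Bpgm to Pgam1, related mutases, went from 0.468 through 7.26 to 57.0, with about 11 reads of Pgam1 in R4. The mitoferrins, Slc25a37 to Slc25a28, went from 3.48 through 106 to 353. Bcl2l1 to Mcl1, both survival factors, went from 0.493 through 3.41 to 12.6. Ratios of regulators shifted as well. E2f2 to E2f1 went from 0.572 through 3.42 to 8.89. Gata1 to Gata2 went from 6.32 through 100 to 77.5, with its peak in R3. Ezh1 to Ezh2, the catalytic subunits of Polycomb, went from 0.105 through 0.230 to 1.31, and the more abundant of the pair changed only at the second step. Mxi1, a MAX partner, to Myc went from 0.0788 through 0.833 to 1.99. The ferritin chains did not part: Ftl1 to Fth1 was 0.794, 0.655 and 0.847. The 2 pairs that moved the other way were Car1 to Car2, from 0.0264 to 0.00424, and Pabpc4 to Pabpc1, from 0.275 to 0.0976. The median shift over the 28 pairs was 3.60 on the log2 scale, 2.49 from R2 to R3 and 1.11 from R3 to R4, and 21 pairs moved more at the first step.

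**Figure D4:**
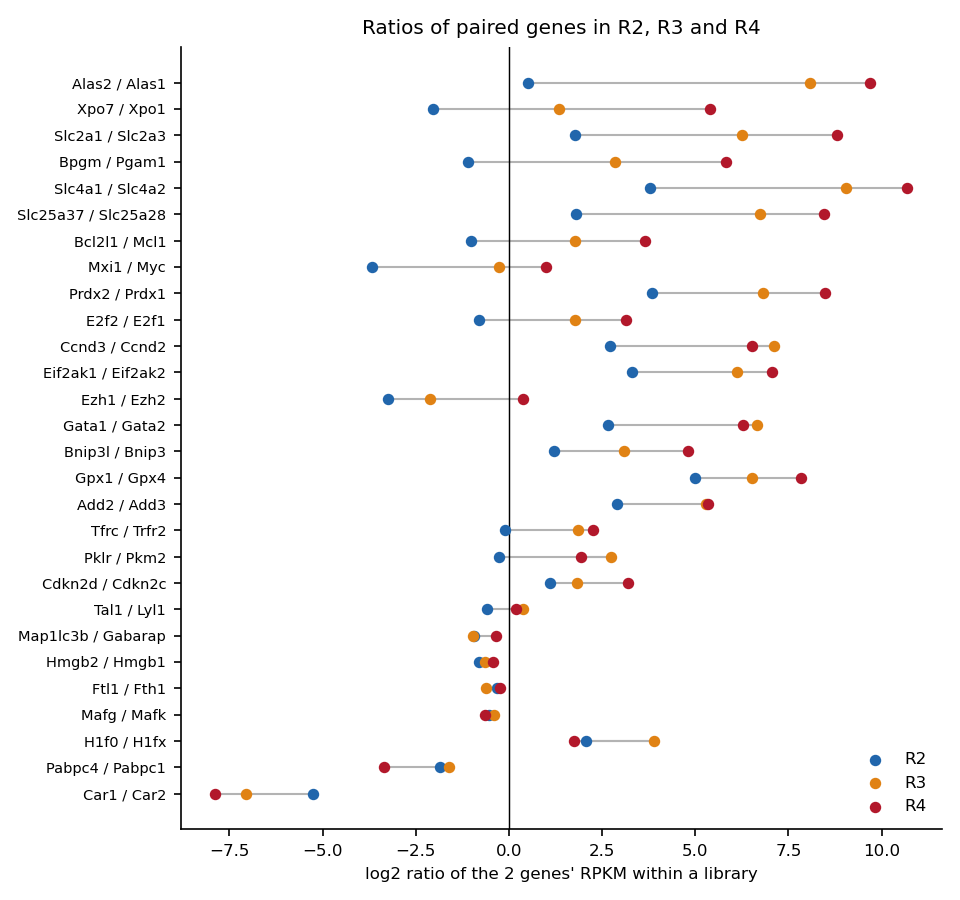
log2 of the ratio of 2 related genes within a library (horizontal) for 28 pairs (vertical), in R2, R3 and R4. A point right of 0 means that the first-named gene has the higher RPKM. Alas2 over Alas1 shifts from 0.51 to 9.69, and Ftl1 over Fth1 stays between -0.61 and -0.24.

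For most genes called between R2 and R4 the first step was the larger. As deposited, 379 genes (3.81%) were higher and 5478 (55.1%) lower in R3 than in R2, and 49 (0.493%) higher and 3196 (32.1%) lower in R4 than in R3. With globins removed the first step had 763 (7.68%) higher and 2181 (22%) lower, and the second 192 (1.93%) and 263 (2.65%). With median scaling, 835 genes (8.40%) were higher and 1793 (18.0%) lower in R3 than in R2, against 425 (4.27%) higher and 38 (0.382%) lower in R4 than in R3. Of the 311 non-globin genes higher in R4 under all 3 scales, the first step was the larger in 286 as deposited, 282 with globins removed and 258 with median scaling. Of the 2410 genes lower under all 3 scales it was the larger in 2303, 2164 and 2302. DNA replication genes were an exception. Of 40, 5 were lower at the first step and all 40 at the second as deposited, with medians of -0.62 and -1.67. With median scaling the medians were 0.20 and -0.67, and 1 gene was 2-fold lower at the second step.

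A smaller group rose at both steps by 2-fold or more: 25 genes as deposited, 117 with globins removed and 234 with median scaling, among genes at 10 RPKM or more in 1 of the 3 libraries, those under 30 reads left out. Xpo7 led on every scale, with steps of 2.33 and 2.24 as deposited, followed by Tmcc2 with 3.23 and 1.82 and Tcp11l2, at 3.03, 19.8 and 68.5 RPKM, with 2.36 and 1.74. Ankrd43 went from 6.88 through 27.3 to 86.8 RPKM. Band 3 and protein 4.2 by contrast were near their R4 level in R3 as deposited. With median scaling both passed 2-fold at the second step too (1.27 and 1.19). Genes highest in R3 by 2-fold at both steps numbered 30 as deposited, 13 with globins removed and 1 with median scaling. Each of the 3 rankings was led by Tac2, which encodes a tachykinin peptide, at 2.80, 15.6 and 2.68 RPKM. After it came Acp5, Afp and Ccnd3 as deposited, and Tcf19 and Slbp, a histone mRNA binding protein, with median scaling, where neither passed 2-fold at the second step (-0.97 and -0.96). Afp and Alb, markers of hepatocytes, were at 50.1, 138 and 42.8 and at 64.8, 161 and 51.1 RPKM, and the part of the hepatocyte signal in the R3 peak was not tested. Few genes fell at both steps once scaled: 1824 as deposited, 23 with globins removed and 5 with median scaling. Erh, a nuclear RNA-processing factor, was among them on every scale, at 264, 69.9 and 13.6 RPKM.

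**Figure D5:**
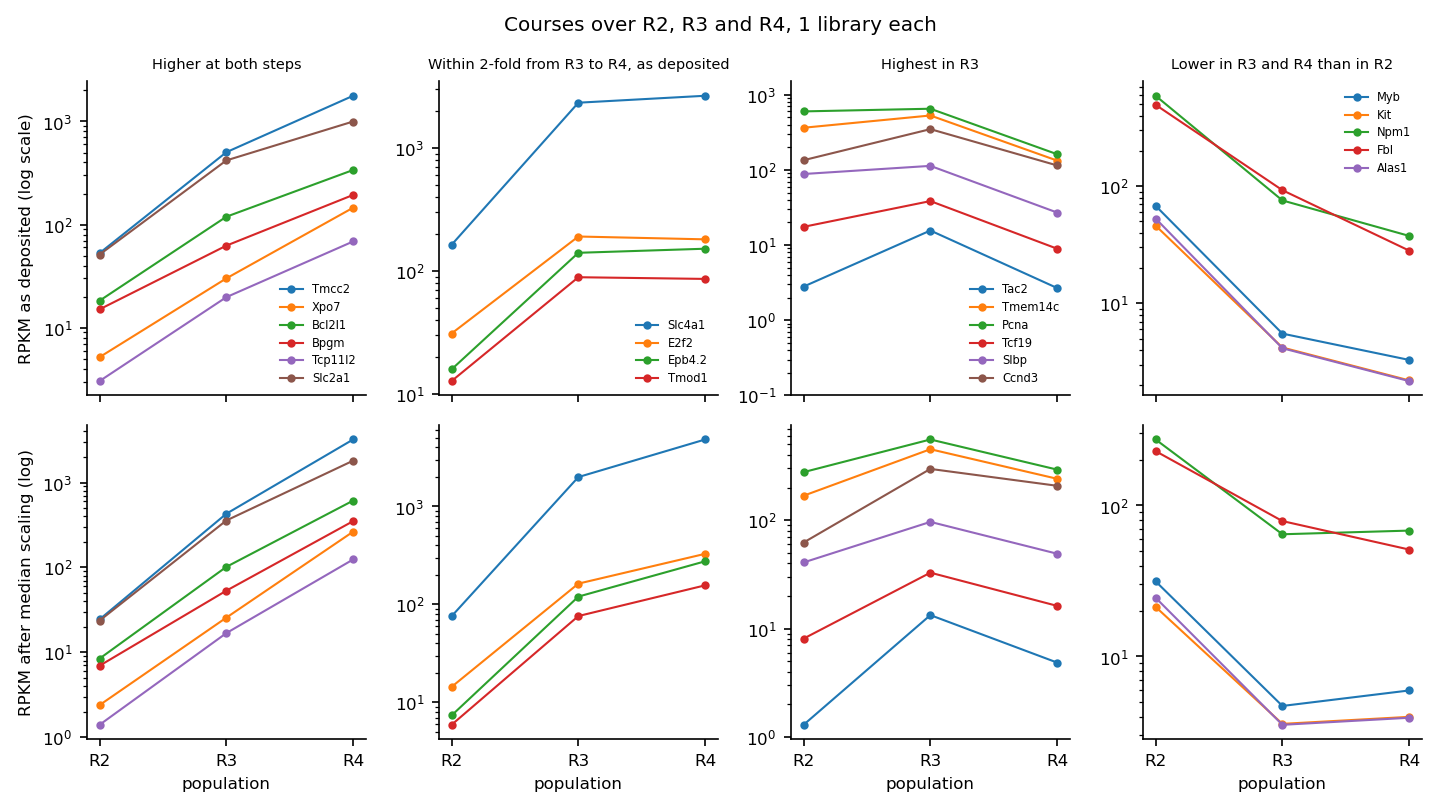
RPKM as deposited (upper row) and after median scaling (lower row), on log scales, in R2, R3 and R4 for 21 named genes in 4 groups, 1 library per point. Xpo7 and Tmcc2 still climb from R3 to R4, Epb4.2 is near level there as deposited (141 and 152 RPKM), and Myb and Kit have their drop between R2 and R3.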

How the data were processed

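RNA from the sorted R2, R3, R4 and R5 cells was enriched for polyadenylated transcripts and sequenced as 1 library per population, per the labels' protocols. The values are RPKM per gene symbol, as the authors deposited them, with 2 decimals for 19564 symbols. The genome build was mm9, per the submitters' processing notes. Which aligner, counting program and gene annotation made them was not given in the sources used here. No file states a depth, so reads were inferred from genes whose values are whole multiples of 1 read over few bases. Reads per gene were then estimated from such fitted bases (270 genes) or from exonic lengths of the GENCODE annotation of GRCm38, and 174 of the 9942 genes kept had under 30 reads. Exonic lengths overstate reads where few bases could be counted, so this number may be too low. RPKM cannot be turned into a count test here, and with 1 library per population no test was made. Symbols were matched by name, and a few symbols in the files are whole numbers and were not named.

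Genes at 1 RPKM or more in at least 1 of the 4 libraries were kept. Ratios used a pseudocount of 1 RPKM, which understates changes of low genes. The 37 gene lists hold 897 entries, of which 14 were not matched, 9 were matched by a listed older name and 7 by a synonym. The members and lists were chosen with earlier results of these data known. Named genes follow a rule: the 15 highest and lowest ratios, whole lists for globins, heme, iron, membrane, transcription factors, progenitors, enucleation and cycle exit, the pairs, and the leading genes of other lists and course shapes. Further list members named in the text were chosen after their values were seen. Promoter windows came from a RefSeq table, which held one for 7986 of the 9942 genes. The steps were tested on simulated data. Computation used Python 3.11.15, numpy 2.4.6, pandas 2.3.3 and matplotlib 3.10.9. Alternatives were other pseudocounts and filters, the 2 rescalings and leaving out genes with few reads.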

Additional observations from a re-analysis of the deposited data

How the results depend on the processing

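Scaling decided the counts, and the direction of several genes. With median scaling 1159 genes were higher and 2410 lower in R4 than in R2, 835 and 1793 in R3 than in R2, and 425 and 38 in R4 than in R3. With globins removed the counts were 806 and 4201, 763 and 2181, and 192 and 263. As deposited they were 320 and 7930, 379 and 5478, and 49 and 3196. A pseudocount of 0.1 RPKM gave 74 higher and 5884 lower in R4 than in R3. One of 5 RPKM gave 5195 lower in R4 than in R2, 251 higher and 2969 lower in R3 than in R2, and 24 higher and 970 lower in R4 than in R3. The filters and leaving out genes under 30 reads kept all 6 counts within 1.5 times. Of 29 list medians of R4 against R2 below 0 as deposited, 10 turned positive with median scaling. The 5 that were at least 2-fold lower as deposited were iron handling (0.21), stress response and RNA binding (0.13), antioxidant genes (0.28), and macrophage (0.072) and megakaryocyte markers (0.14). The other 5 were erythroid transcription factors (1.5), mitosis (1.15), autophagy (1.19), and hepatocyte (1.39) and endothelial markers (0.30), which also turned with globins removed. Of 68 named genes below 0 as deposited, 17 turned on the median scale and 13 without globins, and 11 of each were within 2-fold as deposited (Gata1, for example, went to 1.55 and 1.04). The rest were E2f1 (0.54), Pabpc4 (0.89), Pcna (0.077), Rcl1 (0.033), Slbp (0.26) and Tmem14c (0.52) with median scaling, and with globins removed E2f1 (0.035) and Pabpc4 (0.37). Both rescalings raise the log2 ratios of R4 against R2, by less for genes at low RPKM once the pseudocount is added. All 28 pair ratios kept their direction and their side of 2-fold with a pseudocount of 1 RPKM. No paired analysis was possible because each population has 1 library.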
